A study of Mus musculus with 20 samples.

Results

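This account concerns 9 genes: the surface molecules by which myeloid-derived suppressor cells (MDSC) were sorted, and transcripts used to recognise tissue macrophages. They were Ly6c1, Ly6c2, Ly6g, Adgre1, Ptprc, Cd14, Ms4a7, Tmem119 and Mertk, chosen by symbol with earlier results of these data known. All 9 of the 9 were found among the 23090 genes counted in each library. Poly-A RNA was sequenced from MDSC of female SCID.beige mice, a strain without mature T and B cells and with impaired natural killer cells, aged 6 to 8 weeks and carrying subcutaneous tumours grown from injected cells of either the human breast line MDA.MB.231-X1.1 or the mouse colon line CT26. The labels do not tie a library to a tumour line, so whether the lines were balanced between the groups is not known. From a tumour volume of 150 to 200 mm3 the mice received vehicle (MCT) or 25 mg/kg GNE-781 by oral gavage, BID, for 7 days. GNE-781, called CBPi here, blocks the bromodomain by which CBP and EP300, paired acetyltransferases and transcriptional co-activators, bind acetylated histones. Monocytic MDSC (mMDSC) were sorted as CD45+CD11b+Ly6C+Ly6G-F4/80- and granulocytic MDSC (gMDSC) as CD45+CD11b+Ly6C+Ly6G+F4/80- cells. Each of the 4 groups held 5 libraries, numbered 1 to 5 with vehicle and 6 to 10 with CBPi, and every animal in every group carried a tumour. Whether libraries came from separate or shared animals is not in the labels, so p-values measure the spread between these samples.

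Ptprc encodes CD45, the tyrosine phosphatase on nearly all leukocytes, and Adgre1 encodes F4/80, the adhesion G-protein-coupled receptor that marks mouse macrophages. Ly6c1 and Ly6c2 encode the Ly6C antigens of inflammatory monocytes, and Ly6g encodes the Ly6G antigen of mature neutrophils. These 3 belong to the Ly6 family of small proteins held in the outer membrane by a glycolipid anchor. Cd14 is the co-receptor that hands bacterial lipopolysaccharide to TLR4. Ms4a7 is a membrane-spanning protein of macrophages, Tmem119 is a surface protein used to tell microglia from other brain macrophages, and Mertk is the receptor tyrosine kinase by which macrophages bind dying cells through the bridging ligands Gas6 and protein S.

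The coding sequences of Ly6c1 and Ly6c2 were compared because reads from the pair may be hard to assign. In GENCODE M21 on GRCm38, transcripts Ly6c1-201 (chr15:75045013-75048830, minus strand) and Ly6c2-201 (chr15:75108161-75111970, minus strand) each had 396 coding bases and were 97.7% identical, with 9 substitutions and an unbroken identical run of 188 bases. Of the 50-base windows in the Ly6c1 coding sequence 46.7% occurred unchanged in Ly6c2, and of the 75-base windows 35.4%. Ly6g-202 (chr15:75155240-75159126, plus strand, 405 coding bases) was 78.3% identical to Ly6c1, and no 50-base window of Ly6c1 occurred in it. The first 150 coding bases, written 5′ to 3′ with capitals where a base differs from Ly6c1 at the same position, show how near Ly6c2 lies to Ly6c1 and how far Ly6g, with 6 differences in Ly6c2 and 25 in Ly6g.
Ly6c1: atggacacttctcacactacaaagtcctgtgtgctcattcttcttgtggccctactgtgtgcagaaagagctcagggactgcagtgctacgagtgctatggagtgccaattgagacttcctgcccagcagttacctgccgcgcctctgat
Ly6c2: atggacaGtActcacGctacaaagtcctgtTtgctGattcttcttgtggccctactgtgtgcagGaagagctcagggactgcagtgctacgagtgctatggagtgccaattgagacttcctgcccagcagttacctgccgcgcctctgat
Ly6g: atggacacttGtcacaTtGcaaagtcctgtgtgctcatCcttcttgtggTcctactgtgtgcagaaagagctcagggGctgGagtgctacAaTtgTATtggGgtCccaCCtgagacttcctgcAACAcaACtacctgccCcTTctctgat

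The promoters of Ly6c1 and Ly6c2 are shown because the pair moved together in every comparison. RefSeq's windows on GRCm38.p6, from 250 bases before to 50 bases after the listed start, lie at chr15:75048788-75049087 and chr15:75111922-75112221, both on the minus strand. Capitals mark the letters GAGGAAGT, an ETS or PU.1-type motif searched on both strands after the sequences had been seen.
Ly6c1: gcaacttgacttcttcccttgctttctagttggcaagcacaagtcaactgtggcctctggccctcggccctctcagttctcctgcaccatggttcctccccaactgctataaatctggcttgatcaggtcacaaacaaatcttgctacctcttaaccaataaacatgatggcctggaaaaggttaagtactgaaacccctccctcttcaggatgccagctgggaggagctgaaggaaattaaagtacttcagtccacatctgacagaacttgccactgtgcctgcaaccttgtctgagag
Ly6c2: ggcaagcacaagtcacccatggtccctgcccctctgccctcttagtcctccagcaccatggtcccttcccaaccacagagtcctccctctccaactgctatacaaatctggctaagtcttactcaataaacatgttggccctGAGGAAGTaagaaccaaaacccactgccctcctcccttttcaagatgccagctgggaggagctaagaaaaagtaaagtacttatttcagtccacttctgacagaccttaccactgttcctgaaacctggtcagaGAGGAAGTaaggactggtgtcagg
The Ly6c2 window held 2 matches, starting at -108 and 26 relative to the start, and the Ly6c1 window held 0. Of 27025 promoter windows of the same length, 3.28% held the motif. A second listed window for Ly6c1, chr15:75048614-75048913, held 1 match, at -127. The printed Ly6c1 window ends inside that same site, so its 0 depends on where the window stops. Ly6g, which differed between the cell types in the other direction, also held the motif. Its window 1 had 1 match (-31) and its window 2 had 2 (-99 and 26). A global alignment of the printed windows was 62.3% identical over 334 columns, of which 68 were gaps.

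The other genes lie on GRCm38.p6 at chr17:57358581-57483529 (Adgre1), chr1:138062859-138175756 (Ptprc), chr19:11321039-11336146 (Ms4a7), chr5:113793729-113800396 (Tmem119) and chr2:128698915-128803162 (Mertk). Cd14 is on chromosome 18. Counts are given per gene and do not separate exons. The counted widths of Ly6c2 and Ly6g equal their coding lengths, 79.97% of all widths are multiples of 3, and that of Ly6c1 is 574 bases, so the counts appear to cover mainly coding sequence. For Ly6c1 the counted width exceeds the 396 coding bases compared above, so the identity values do not describe all that was counted for it.

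Libraries held 12372630 to 26635889 counts. Within a group, log2 levels of 2 libraries correlated at 0.928 to 0.964 (mMDSC, vehicle), 0.942 to 0.964 (mMDSC, CBPi), 0.848 to 0.953 (gMDSC, vehicle) and 0.932 to 0.956 (gMDSC, CBPi). Vehicle gMDSC library 3 stood apart (mean r 0.859 to its group), and vehicle gMDSC library 5 had little Ly6g for its label. Both are named again where a result rests on them. Levels are given as CPM, read counts scaled to a common library size. In mMDSC the 12 neutrophil markers summed to 341 to 417 CPM (vehicle) and 213 to 360 CPM (CBPi). In gMDSC they summed to 9264 to 35180 CPM (vehicle) and 7895 to 14590 CPM (CBPi), so every gMDSC sum was far above every mMDSC sum. The markers did not all follow the sum. Of 11 tested between cell types, 6 were higher in gMDSC and 0 lower with vehicle, and 7 higher and 2 lower with CBPi. All 8 monocyte markers differed between the vehicle populations, 4 higher and 4 lower in gMDSC (2 higher and 4 lower with library totals alone). F13a1 was at 168 to 370.4 CPM in mMDSC and at 0.763 to 4.42 CPM in gMDSC, and Nr4a1 averaged 1501 and 2398 CPM, while the sums of the 8 overlapped (3001 to 4375 and 3244 to 4867 CPM). The 23 macrophage identity genes summed to 26770 to 36110 CPM in vehicle mMDSC and 35890 to 78720 CPM in vehicle gMDSC, although F4/80+ cells were gated out. Apoe, with means of 18340 and 32950 CPM, made up most of these sums, and C1qb came next (2975 and 5205 CPM). Genes of the list named after their values were seen went both ways. Marco, Vsig4 and Lyve1, markers of resident macrophages in other tissues, averaged under 1 CPM in every group. Siglec1 averaged 310 and 322 CPM, Mrc1 83.3 and 117 CPM, and Timd4 15.2 and 1.92 CPM in vehicle mMDSC and gMDSC. In bulk RNA, fewer cells of a type and less RNA per cell cannot be told apart.

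CBPi was accompanied by lower Tmem119, Ms4a7, Ly6c1 and Ly6c2 in both cell types, and in mMDSC also by lower Adgre1 and Ptprc and higher Cd14. In mMDSC 7 of the 8 tested genes passed an adjusted p of 0.05 (edgeR quasi-likelihood test, Benjamini-Hochberg adjustment over all genes tested), 6 lower (Tmem119, Ms4a7, Ly6c1, Ly6c2, Adgre1, Ptprc) and 1 higher (Cd14), against 8.56% of 11912 genes called, 5.54% lower and 3.02% higher. By CPM, groups did not overlap for those 7 genes, against 9.75% of all genes. By deposited RPKM the groups overlapped for Adgre1 and Ptprc. In gMDSC 4 of 9 passed, all lower (Tmem119, Ly6c2, Ly6c1, Ms4a7), against 9.71% of 11694 genes called, 5.52% lower and 4.18% higher, and the same 4 did not overlap, against 12.1%. Between cell types with vehicle, 4 of 8 differed, 2 higher in gMDSC and 2 lower, against 21.7% of 11576 genes (13.6% higher, 8.08% lower), and 3 of 8 did not overlap, against 20.1%. With CBPi, 8 of 9 differed, 5 higher and 3 lower, against 39.2% of 11895 genes (20.1% higher, 19.1% lower), and 6 of 9 did not overlap, against 29.2%. Ptprc, among those 6, overlapped by deposited RPKM. Ly6g is among the higher genes and those without overlap there. Its protein set the gate and it passed the count filter through gMDSC alone, so its call was set in advance. The CBPi comparisons share their libraries with the cell-type comparisons. Because the 9 genes were chosen with earlier results of these data known, the shares of all genes serve as description only. Ly6c1 and Ly6c2 may share reads, so their calls are not shown to be independent. The median log2 fold change of all genes was 0.01 for CBPi in mMDSC, 0 in gMDSC, and -0.06 and -0.05 for the cell types with vehicle and CBPi. These shares and medians of all genes also stand beside the counts of the gene lists below.

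Scaling matters to the cell-type comparisons. With library totals alone, in place of trimmed-mean (TMM) factors, the median log2 difference of all genes shifted by -0.37 (vehicle) and -0.48 (CBPi) between the cell types and by 0.12 for CBPi in mMDSC. The calls then split as 1009 higher and 2714 lower in gMDSC with vehicle (1579 and 935 with TMM), as 1300 and 5056 with CBPi (2396 and 2270), and as 693 and 486 for CBPi in mMDSC (360 and 660).

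**Figure D1:**
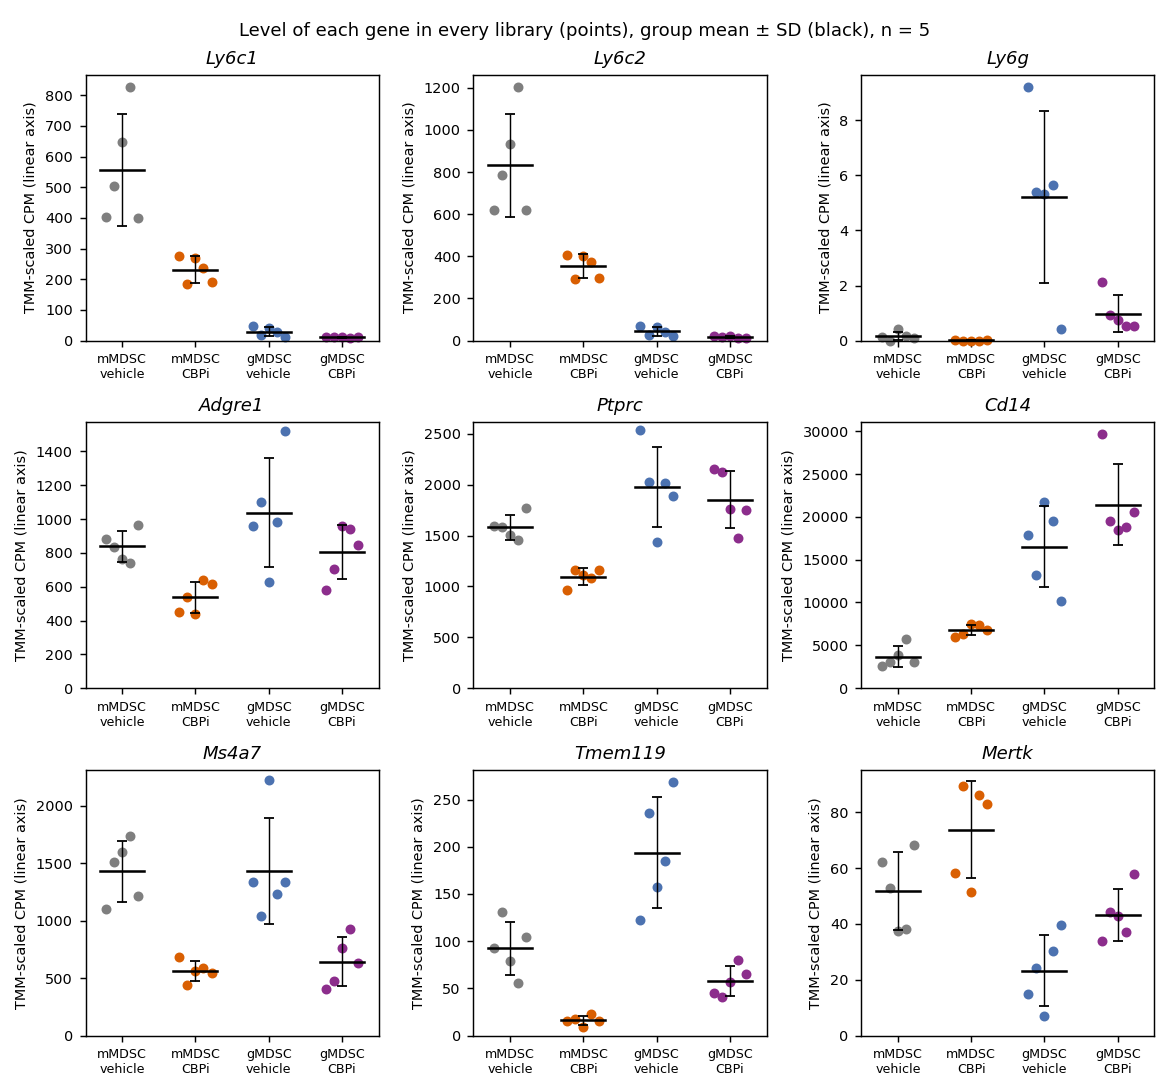
TMM-scaled CPM of the 9 genes (linear axis from 0, a panel per gene) in every library by group; points are libraries, the black line and bar are the mean and SD of 5. Tmem119, Ms4a7, Ly6c1 and Ly6c2 are lower with CBPi in both cell types without overlap, and Cd14 is higher in both gMDSC groups than in both mMDSC groups.

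Both Ly6C transcripts were far higher in mMDSC than in gMDSC, and both fell with CBPi in each. Ly6c2 stood at 622, 785, 932.5, 1203 and 619 CPM in vehicle mMDSC libraries 1 to 5 and at 408, 292, 401, 374 and 297 CPM in CBPi mMDSC libraries 6 to 10. In gMDSC it stood at 68.7, 28.4, 63.1, 42.0 and 20.5 CPM with vehicle and at 19.9, 15.7, 19.7, 12.7 and 12.7 CPM with CBPi. All 10 CBPi libraries thus lay below all vehicle libraries of their cell type, and no mMDSC library overlapped a gMDSC library, although the gate took Ly6C+ cells in both.

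The log2 fold change of Ly6c2 with CBPi was -1.24 ± 0.18 (SE, n = 5 and 5; edgeR adjusted p = 0.00122) in mMDSC and -1.41 ± 0.31 (edgeR adjusted p = 0.0141) in gMDSC. Between cell types Ly6c2 was lower in gMDSC by 18.7-fold with vehicle and 21.2-fold with CBPi (edgeR adjusted p = 2.89e-06 and 3.37e-09). Ly6c1 ran at 403, 502.5, 646, 827 and 400.1 CPM in vehicle mMDSC and at 277, 185.5, 268, 237 and 190 CPM in CBPi mMDSC. In gMDSC it was 13.1 to 48.1 CPM with vehicle and 8.62 to 12.4 CPM with CBPi, again without overlap. Its log2 fold change was -1.27 ± 0.21 in mMDSC (edgeR adjusted p = 0.00201) and -1.37 ± 0.32 in gMDSC (edgeR adjusted p = 0.0188). The gMDSC call for Ly6c1 was lost without vehicle gMDSC 1 (adjusted p = 0.0524) and without CBPi gMDSC 7 (adjusted p = 0.0543), within a range of 0.001 to 0.0543 over all alternatives.

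Counts of Ly6c1 and Ly6c2 kept nearly a fixed proportion. Ly6c1 made up 39.85% ± 0.90 (SD, n = 5) of the pair's counts in vehicle mMDSC, 39.44% ± 0.79 in CBPi mMDSC, 39.50% ± 0.96 in vehicle gMDSC and 40.74% ± 4.08 in CBPi gMDSC. None of the 4 comparisons passed an exact two-sided permutation test (adjusted p = 0.746 in each, smallest possible p 0.007937, none under an unadjusted p of 0.05). CBPi gMDSC library 10 stood off the line, at 47.7% of 505 counts (Wilson 95% interval 43.4 to 52.1, counting error only). With the pair's counts summed, the log2 fold change with CBPi was -1.26 in mMDSC (edgeR adjusted p = 0.00144) and -1.39 in gMDSC (edgeR adjusted p = 0.0122). Given the identity of the sequences, how far each gene's count holds reads of the other was not tested. Per length, the deposited RPKM of Ly6c2 averaged 1351 ± 266 (SD, n = 5) in vehicle mMDSC, where it ranked 49 of 23090 genes by median RPKM rank, and 51.6 ± 17.7 in vehicle gMDSC.

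**Figure D2:**
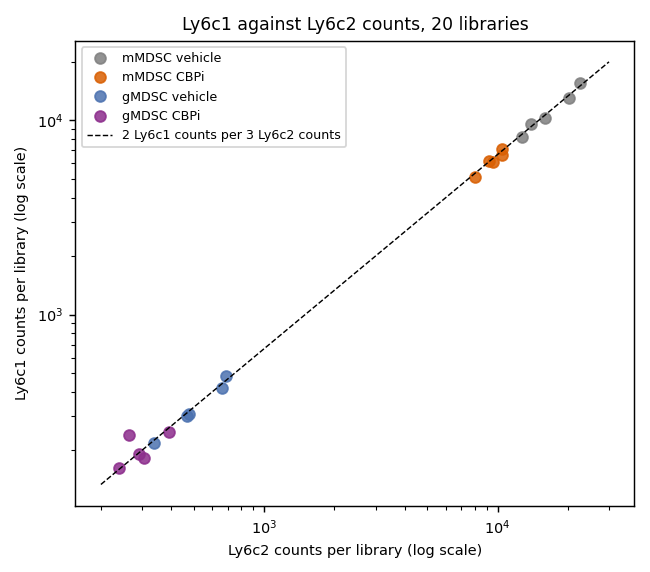
Counts of Ly6c1 against Ly6c2 in the 20 libraries (both axes logarithmic), coloured by group; the dashed line is 2 Ly6c1 counts per 3 Ly6c2 counts. Libraries of all 4 groups lie along the line, with CBPi gMDSC 10 above it.

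Of 15 further cluster genes in the files 4 were expressed enough to test. In mMDSC 3 of the 4 fell with CBPi, including Ly6a (Sca-1), at -1.68 ± 0.24, and Ly6i, at -2.04 ± 0.49 (edgeR adjusted p = 0.000809 and 0.0205), and the median of the 4 was -1.14 against 0.01 for all genes. With library totals alone 2 of 4 fell. In gMDSC 1 of 4 fell, Ly6i at -2.06 ± 0.46 (edgeR adjusted p = 0.0155), and Ly6a was at -1.03 ± 0.38 (adjusted p = 0.11). Both Ly6a and Ly6i were lower in gMDSC than in mMDSC with vehicle, by 2.89 and 3.14 on the log2 scale (edgeR adjusted p = 0.000178 and 0.00121).

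Ly6g RNA was low even in the cells sorted for its protein. It gave 9.20, 5.41, 5.34, 5.65 and 0.438 CPM in vehicle gMDSC libraries 1 to 5, and 2.14, 0.916, 0.753, 0.532 and 0.529 CPM in CBPi gMDSC libraries 6 to 10. In mMDSC it lay between 0 and 0.404 CPM with vehicle (at most 6 counts) and between 0 and 0.0392 CPM with CBPi (at most 1 count). On this scale every gMDSC library was above every mMDSC library, but by deposited RPKM vehicle mMDSC 3 (0.642) lay above vehicle gMDSC 5 (0.627), and no other mMDSC library overlapped gMDSC. The gMDSC groups overlapped through vehicle library 5, which held 10 Ly6g counts. A library with 0 counts allows up to 3.

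Summed over libraries, Ly6g counts numbered 286 in vehicle gMDSC against 14 in vehicle mMDSC, a CPM ratio of 32.5 (exact 95% interval 19.0 to 60.1, counting error only). They numbered 86 in CBPi gMDSC against 2 in CBPi mMDSC, a ratio of 62.5 (16.8 to 524). On a log2(CPM + 0.1) scale, Ly6g was higher in gMDSC by 4.10 with vehicle and 3.07 with CBPi (exact permutation test, two-sided, adjusted p = 0.01587 in both over 4 comparisons, n = 5 and 5). The sort separated Ly6G+ from Ly6G- cells, so this direction was set in advance and the test only checks the labels. The difference with CBPi in gMDSC was -2.03 (exact permutation adjusted p = 0.05556), and the edgeR log2 fold change was -2.37 ± 0.70 (adjusted p = 0.0502). Neither passed 0.05. The Ly6g value passed under 6 alternatives: without vehicle gMDSC 5 (-2.66, adjusted p = 0.0129), without CBPi gMDSC 6 (-2.86, 0.044), without vehicle gMDSC 3 and 5 (-2.74, 0.0126), with DESeq2 (-2.37, 0.0057), with all 20 libraries in a single model (-2.42, 0.0379) and with library totals alone (-2.39, 0.0436), within a range of 0.0057 to 0.314 over all alternatives. In mMDSC the difference was -1.0 (exact permutation adjusted p = 0.05556), at 1 or 0 counts per CBPi library.

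Of 10 neutrophil markers tested in gMDSC 4 fell, including Ltf (lactoferrin), at -1.61 ± 0.32, and Ngp, a granule protein, at -2.64 ± 0.65 (edgeR adjusted p = 0.00871 and 0.0236), and none rose. The median of the 10 was -0.93 against 0 for all genes. Csf3r, the G-CSF receptor, was higher in gMDSC than mMDSC by 4.08 ± 0.17 on the log2 scale with vehicle (edgeR adjusted p = 1.59e-08). Its level in gMDSC averaged 4070 ± 775 CPM with vehicle and 3223 ± 717 CPM with CBPi (SD, n = 5). The part of neutrophil content in the Ly6g values was not tested.

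Adgre1 RNA was abundant in both F4/80-negative populations. It stood at 884, 838, 766, 741 and 965.5 CPM in vehicle mMDSC and at 453, 538, 438, 643 and 616 CPM in CBPi mMDSC, without overlap. By deposited RPKM Adgre1 did overlap there, with vehicle mMDSC 4 (149.4) below CBPi mMDSC 9 (168.8) and CBPi mMDSC 10 (164.3). In gMDSC it was 957, 1102, 628.5, 985 and 1520 CPM with vehicle and 583, 706, 959, 941 and 844.5 CPM with CBPi, and these overlapped. By median RPKM rank Adgre1 was number 459 of 23090 genes in vehicle mMDSC and 453 in vehicle gMDSC.

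Adgre1 was lower with CBPi in mMDSC by 0.65 on the log2 scale (-0.65 ± 0.13, edgeR adjusted p = 0.00864). The call was lost, at -0.64 and an adjusted p of 0.0507, when all 20 libraries entered a single model, within a range of 0.000319 to 0.0507 over all alternatives. In gMDSC the value was -0.33 ± 0.23 (edgeR adjusted p = 0.391, interval of 2 SE from -0.79 to 0.13). Adgre1 was higher in gMDSC than mMDSC with CBPi (0.64 ± 0.17, edgeR adjusted p = 0.00777), but not with library totals alone (0.18, adjusted p = 0.452). With vehicle the difference was 0.33 ± 0.20 (adjusted p = 0.291), and its sign turned with library totals alone (-0.01).

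Other adhesion receptors gave mixed values. In mMDSC 3 of 13 tested fell with CBPi, among them Adgre4, of the same EGF-repeat subgroup as Adgre1, at -0.74 ± 0.12, and Adgrg5, at -0.70 ± 0.14 (edgeR adjusted p = 0.00168 and 0.00936). In gMDSC 0 of 12 passed edgeR's test, 2 of them under an unadjusted p of 0.05, and 2 of 14 passed without vehicle gMDSC 3 and 5. Adgre4 was lower in gMDSC than in mMDSC, by 3.69 on the log2 scale with vehicle (edgeR adjusted p = 3.53e-05). The gene list was read against medians of all genes of 0.01 in mMDSC and 0 in gMDSC, and its own medians were -0.67 and -0.02.

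Ptprc, the CD45 gene, fell with CBPi in mMDSC. It stood at 1597, 1586, 1505, 1453 and 1774 CPM with vehicle and 960.2, 1166, 1116, 1079 and 1163 CPM with CBPi, without overlap (-0.54 ± 0.09, edgeR adjusted p = 0.00319). By deposited RPKM Ptprc did overlap there, with vehicle mMDSC 4 (211.0) below CBPi mMDSC 7 (224.1) and CBPi mMDSC 10 (223.4). In gMDSC it stood at 2537, 2024, 1439, 2013 and 1887 CPM with vehicle and 2151, 2121, 1760.0, 1480.0 and 1749 CPM with CBPi. These groups overlapped almost wholly, at -0.06 ± 0.17 (adjusted p = 0.875, interval of 2 SE from -0.40 to 0.29), and the sign turned without vehicle gMDSC 1 (0.03) and without CBPi gMDSC 9 (0.02). Ptprc was higher in gMDSC with CBPi (0.81 ± 0.12, edgeR adjusted p = 0.000229), by 0.31 with library totals alone (adjusted p = 0.0212). With vehicle it was at 0.34 ± 0.15 (adjusted p = 0.131), passing without vehicle gMDSC 3 (0.43, adjusted p = 0.0267) and turning sign with library totals alone (-0.03, range of adjusted p 0.0206 to 0.898).

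CD45 keeps Src-family kinases active by removing an inhibitory phosphate, which the kinase Csk adds. Of 15 other genes tested in this circuit in mMDSC, 5 fell with CBPi and none rose. They included the Src-family kinase Fgr (-1.09 ± 0.12, edgeR adjusted p = 0.00017), and the median of the 15 was -0.32 against 0.01. In gMDSC 4 of 16 fell and 1 rose (0 rose with library totals alone), with a median of -0.17 against 0. The phosphatase Ptpn6 (SHP-1) was at -1.0 ± 0.13 and Csk at -1.08 ± 0.18 there (edgeR adjusted p = 0.000646 and 0.00284), while Ptprc itself was not called. The gate's CD11b gene, Itgam, did not pass with CBPi in mMDSC (0.32 ± 0.23, adjusted p = 0.459) or gMDSC (0.59 ± 0.23, adjusted p = 0.135).

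**Figure D3:**
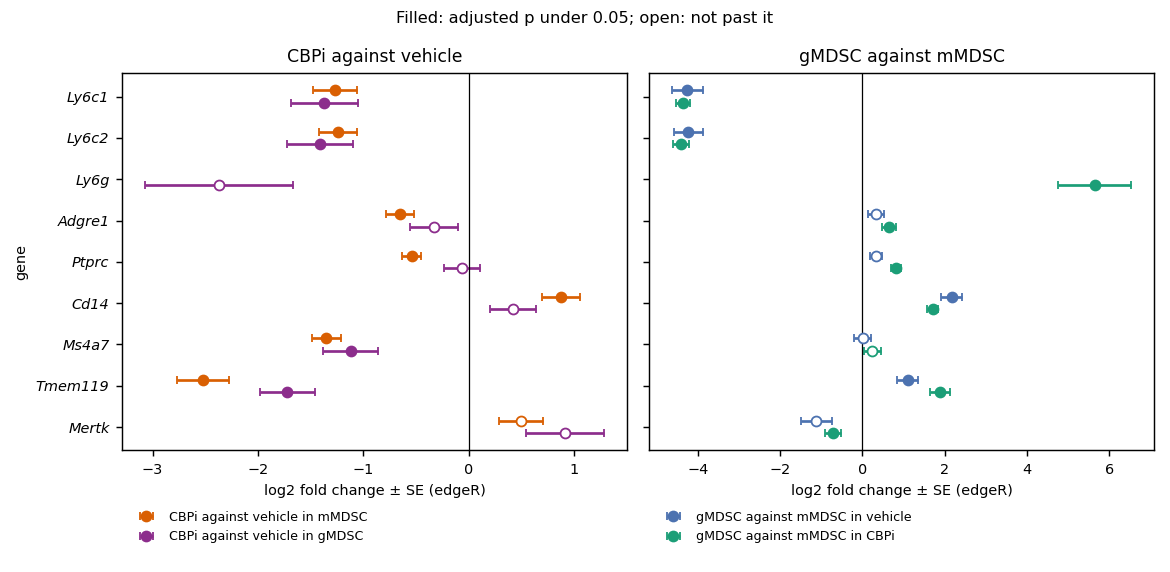
Log2 fold change ± SE (edgeR) of the 9 genes for CBPi against vehicle (left) and gMDSC against mMDSC (right); filled points passed an adjusted p of 0.05, and Ly6g was not tested where too few counts were present. Left, Tmem119 shows the lowest mMDSC value (-2.52). On the right both Ly6C genes lie near -4, and Ly6g, whose protein set the gate, lies at 5.65.

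Cd14 rose with CBPi in mMDSC. It stood at 2617, 3046, 3869, 5759 and 3102 CPM in vehicle mMDSC and at 6027, 6354, 7454, 7344 and 6822 CPM in CBPi mMDSC. Every CBPi library was above every vehicle library, with vehicle library 4 nearest, and the rise was 0.88 ± 0.18 on the log2 scale, or 1.84-fold (edgeR adjusted p = 0.00999). In gMDSC the levels were 17910, 13240, 21790, 19540 and 10120 CPM with vehicle and 29700, 19520, 18410, 18800 and 20560 CPM with CBPi. Those groups overlapped, at 0.42 ± 0.22 (adjusted p = 0.253, interval of 2 SE from -0.02 to 0.85).

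Cd14 was higher in gMDSC by 4.51-fold with vehicle and by 3.26-fold with CBPi (edgeR adjusted p = 6.34e-05 and 1.13e-06). It took 1.39% of all counts in vehicle gMDSC and 1.87% in CBPi gMDSC, and by median RPKM rank it was number 7 and number 4 of 23090 genes. Among other genes of lipopolysaccharide sensing, 6 of 15 fell in mMDSC with CBPi and none rose (3 of 15 with library totals alone), including Cd180, at -1.53 ± 0.16, and Tlr1, at -0.78 ± 0.13 (edgeR adjusted p = 8.23e-05 and 0.0024). In gMDSC 4 of 15 fell, including Cd180, at -1.45 ± 0.25, and its partner Ly86 (MD-1), at -1.09 ± 0.20 (edgeR adjusted p = 0.00346 and 0.00545). The list's medians were -0.38 and -0.36, against 0.01 and 0 for all genes.

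Ms4a7 fell with CBPi in both populations. It stood at 1099, 1509, 1599, 1738 and 1219 CPM in vehicle mMDSC and at 682, 443, 562, 591 and 548 CPM in CBPi mMDSC. In gMDSC it stood at 1336, 1038, 2226, 1234 and 1334 CPM with vehicle and at 407, 473, 766, 930.3 and 637 CPM with CBPi. All CBPi libraries were below all vehicle libraries of their type, the nearest being CBPi gMDSC 9 and vehicle gMDSC 2. The log2 fold change was -1.35 ± 0.14 in mMDSC (edgeR adjusted p = 0.000115) and -1.12 ± 0.26 in gMDSC (edgeR adjusted p = 0.0173).

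The gMDSC call for Ms4a7 was lost without CBPi gMDSC 7 (-1.02, adjusted p = 0.0542) and without vehicle gMDSC 3 and 5 together (-0.85, adjusted p = 0.0545), within a range of 0.000893 to 0.0545. Between the cell types it did not pass, at 0.01 ± 0.21 with vehicle (adjusted p = 0.979) and 0.24 ± 0.21 with CBPi (adjusted p = 0.388), with the sign turning by scaling (-0.38 and -0.20 with library totals alone). Of the other genes of its family, 7 of 10 were lower in gMDSC with vehicle and 1 was higher. Ms4a6d was at -2.03 ± 0.15 and Ms4a4a at -2.19 ± 0.18 (edgeR adjusted p = 1.22e-06 and 2.28e-06). With CBPi, 4 of 11 fell in mMDSC, led by Ms4a8a (-1.76 ± 0.35, edgeR adjusted p = 0.00786) and Tmem176a (-0.86 ± 0.19, adjusted p = 0.0129), the latter a related membrane protein. In gMDSC 2 of 10 fell, Tmem176b (-1.45 ± 0.18) and Tmem176a (-1.64 ± 0.22; edgeR adjusted p = 0.000507 and 0.000644). Family medians were -0.67 in mMDSC and -0.16 in gMDSC.

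Tmem119 showed the greatest fall with CBPi of the 8 genes tested in mMDSC. It stood at 93.2, 131, 78.9, 55.5 and 104 CPM in vehicle mMDSC and at 15.6, 17.4, 9.70, 22.8 and 15.7 CPM in CBPi mMDSC. In gMDSC it stood at 122, 236, 157, 185 and 269 CPM with vehicle and at 45.1, 40.9, 57.0, 80.2 and 65.4 CPM with CBPi. Neither pair of groups overlapped.

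Tmem119 was lower with CBPi by 5.72-fold in mMDSC (-2.52 ± 0.25 on the log2 scale, edgeR adjusted p = 8.03e-05) and by 3.29-fold in gMDSC (-1.72 ± 0.26, adjusted p = 0.00152). Leaving out each library in turn gave -2.67 to -2.37 and -1.86 to -1.56. It was higher in gMDSC than mMDSC by 1.10 ± 0.26 with vehicle and 1.88 ± 0.24 with CBPi (edgeR adjusted p = 0.00842 and 4.33e-05). With library totals alone the vehicle difference was 0.74 and no longer passed (adjusted p = 0.0836, the highest of a range from 0.000488).

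Microglia-signature genes, a list chosen with earlier results of these samples known, fell alongside it. In mMDSC 6 of 12 tested fell and none rose, among them Olfml3, a secreted protein (-1.58 ± 0.20; edgeR adjusted p = 0.000358). In gMDSC 8 of 11 fell and none rose (6 of 12 without vehicle gMDSC 3 and 5), led by the purinergic receptor P2ry12 (-1.92 ± 0.18) and Olfml3 (-1.68 ± 0.22; edgeR adjusted p = 3.83e-05 and 0.000547). The list's median was -0.79 in mMDSC and -1.27 in gMDSC, against 0.01 and 0 for all genes. Sall1, a transcription factor that defines microglia, was near absent, at 0 counts in vehicle mMDSC and at most 2 counts in any library. Like Tmem119, 8 of 11 were higher in gMDSC with vehicle, including P2ry13 (2.06 ± 0.23) and P2ry12 (1.53 ± 0.18; edgeR adjusted p = 4.13e-05 and 5.10e-05). With CBPi 6 of 11 were higher, but 2 of 11 with library totals alone.

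**Figure D4:**
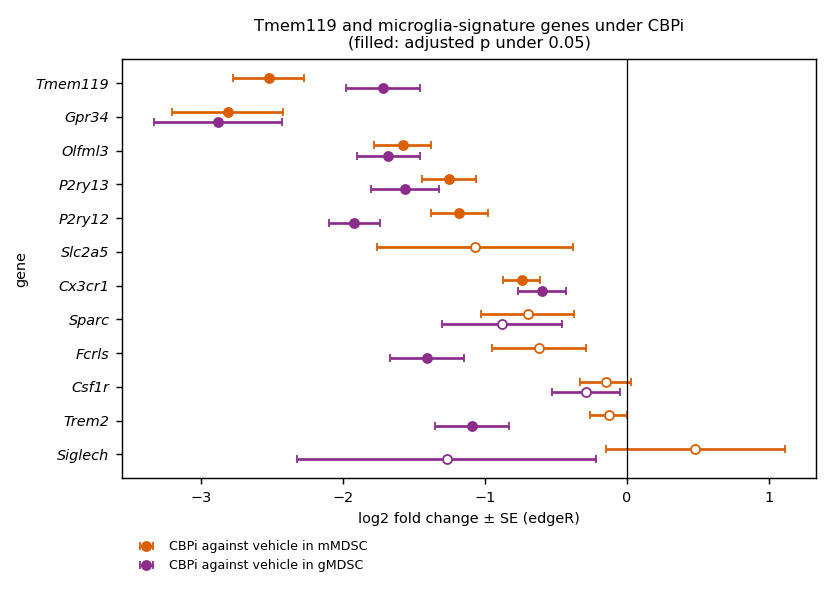
Log2 fold change ± SE (edgeR) with CBPi of Tmem119 and 11 of the 12 tested microglia-signature genes in mMDSC (orange) and gMDSC (purple); filled points passed an adjusted p of 0.05. No plotted gene passed in the higher direction, and Siglech in mMDSC (0.48 ± 0.63) is the single value above 0.

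Among general macrophage genes in mMDSC 5 of 21 tested fell (3 with library totals alone) and 1 rose, with Timd4, a receptor for dying cells that is also in the list for their uptake, at -1.39 ± 0.24 and Pparg at -0.74 ± 0.14 (edgeR adjusted p = 0.00336 and 0.00652). In gMDSC 2 of 19 fell, Trem2, which is also in the microglia list (-1.09 ± 0.26) and Apoe (-1.15 ± 0.29; edgeR adjusted p = 0.0204 and 0.0242), and 0 of 20 passed without vehicle gMDSC 3 and 5. Their summed level in gMDSC was 35890 to 78720 CPM with vehicle and 18830 to 34050 CPM with CBPi, without overlap, beside the falls of Tmem119 and Ms4a7. Apoe, at means of 32950 and 14490 CPM, made up most of that difference, and Mrc1 (0.11 ± 0.31), Siglec1 (0.21 ± 0.26) and Sirpa (0.34 ± 0.24), chosen after their values were seen, did not pass. In mMDSC the sums overlapped, at 26770 to 36110 and 23800 to 28090 CPM. The part of macrophage content in those falls was not tested.

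Mertk did not pass the test with CBPi in either population. It stood at 62.1, 52.9, 37.7, 38.1 and 68.2 CPM in vehicle mMDSC and at 58.3, 89.3, 51.6, 86.1 and 83.1 CPM in CBPi mMDSC. In gMDSC it stood at 15.1, 24.2, 7.06, 30.4 and 39.7 CPM with vehicle and at 33.7, 44.4, 43.0, 37.1 and 57.8 CPM with CBPi. Both pairs of groups overlapped, at 0.50 ± 0.21 in mMDSC (edgeR adjusted p = 0.182, interval of 2 SE from 0.07 to 0.93) and 0.92 ± 0.37 in gMDSC (adjusted p = 0.138, 0.18 to 1.66).

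Without vehicle gMDSC 3 and 5 the Mertk value in gMDSC was 0.94 and passed (adjusted p = 0.0495, range 0.0495 to 0.27). Between cell types Mertk was lower in gMDSC with CBPi, by 0.71 on the log2 scale (-0.71 ± 0.19, edgeR adjusted p = 0.0104), but not when all 20 libraries entered a single model (-0.77, adjusted p = 0.0631, the highest of a range from 0.000535). With library totals alone that Mertk difference was -1.18. With vehicle the value was -1.12 ± 0.38 (adjusted p = 0.0535), and 8 alternatives brought it past the threshold (range 0.00912 to 0.115), among them leaving out vehicle gMDSC 3 (-0.91, adjusted p = 0.0298) or vehicle gMDSC 5 (-1.42, adjusted p = 0.0194).

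Of 16 other genes for the uptake of dying cells tested in mMDSC, 4 fell and 1 rose with CBPi. Of all genes 5.54% fell and 3.02% rose there, and the list's median was -0.34 against 0.01. The inhibitory receptor Cd300lf was at -0.81 ± 0.12 and Timd4 at -1.39 ± 0.24 (edgeR adjusted p = 0.00149 and 0.00336). In gMDSC 1 of 15 fell (2 of 17 without vehicle gMDSC 3 and 5), the scavenger receptor Cd36, at -1.17 ± 0.28, and Stab1 was at -0.73 ± 0.23 (edgeR adjusted p = 0.0208 and 0.0598). That count is near the 5.52% of all genes that fell in gMDSC, and the list's median was -0.06 against 0. Cd36 and Timd4 passed the test of a different response between cell types, at -1.80 ± 0.35 and 3.14 ± 0.67 (edgeR adjusted p = 0.0175 and 0.0323). Cd300lf was higher in gMDSC than mMDSC with vehicle, at 2.63 ± 0.18 (adjusted p = 5.87e-07).

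None of the 9 genes passed the test that the CBPi response differs between gMDSC and mMDSC (edgeR, adjusted p 0.38 to 0.923, against 0.725% of 12688 genes called). An unadjusted p under 0.05 was reached by 2, Ptprc (0.43 ± 0.19, unadjusted p = 0.0339) and Tmem119 (0.76 ± 0.36, unadjusted p = 0.045), and DESeq2 and limma-voom also called 0 of the 9. So the calls of Adgre1, Ptprc and Cd14 in mMDSC and not in gMDSC are not shown to differ. The intervals of 2 SE reach from 0.05 to 0.81 for Ptprc, from -0.25 to 0.81 for Adgre1 and from -1.11 to 0.08 for Cd14.

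Placed in order of mean CPM, Ly6c1 and Ly6c2 ran from CBPi gMDSC through vehicle gMDSC and CBPi mMDSC to vehicle mMDSC, with no overlap between neighbours. Cd14 ran from vehicle mMDSC through CBPi mMDSC to vehicle and then CBPi gMDSC, and its gMDSC groups overlapped. Tmem119 ran from CBPi mMDSC, clear of all others, through CBPi gMDSC and vehicle mMDSC to vehicle gMDSC, with overlap between the last 3 neighbours in turn. Adgre1 and Mertk overlapped between all neighbours in the order. For Ptprc, CBPi mMDSC lay below the other groups by CPM, and those groups overlapped. By deposited RPKM, vehicle gMDSC 3 (138.5) lay below every CBPi mMDSC library (170.0 to 224.1), so that separation depends on scaling. For Ms4a7, the CBPi groups lay below the vehicle groups, with overlap inside each pair.

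Over the 20 libraries, the genes whose log2 CPM followed each most closely (Pearson's r, given as a description, since libraries of a group share their condition) were Napsa (0.986), Nupr1 (0.983) and Ms4a4c (0.973) for Ly6c1, and Napsa (0.985), Nupr1 (0.980) and Ms4a4b (0.972) for Ly6c2. For Ly6g they were Ninj1 (0.957), Rara (0.95) and Tnfrsf1a (0.949). For Adgre1 they were Gatm (0.919), Incenp (0.905) and Tgfbr1 (0.898), and for Ptprc Gk (0.947), Ptk2b (0.940) and Themis2 (0.927). Cd14 was followed by the neutrophil-attracting chemokine Cxcl2 (0.987), Rbm39 (0.985) and the NF-kB inhibitor Nfkbia (0.979). Ms4a7 was followed by Slamf9 (0.965), Rgs10 (0.948) and Lat2 (0.943). Tmem119 was followed by Olfml3 (0.957) and Blnk (0.936), and Mertk by Letm1 (0.942), Lpar1 (0.935) and Srp68 (0.931). Within groups, after each group's mean was taken away, Blnk kept 0.291 with Tmem119 while Olfml3 kept 0.726, and Ptk2b kept 0.952 with Ptprc.

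Within groups some pairs of the 9 genes also varied together, while others did not, such as Ly6c2 with Ptprc (-0.02) and Ms4a7 with Tmem119 (0.04). After removal of group means, Adgre1 correlated with Mertk at 0.82 and with Tmem119 at 0.67, and negatively with Ly6c2 (-0.72) and Cd14 (-0.70), over 20 libraries. Ly6c2 correlated with Cd14 at 0.78 and with Mertk at -0.79, so that libraries high in Ly6C RNA for their group were low in Mertk. Ptprc and Ms4a7 gave -0.81. Vehicle gMDSC 3 and 5 sit at opposite ends, library 3 lowest in Mertk (7.06 CPM) and Adgre1 (628.5 CPM) of its group and library 5 highest in both. These values share depth, sort and library preparation, and how much those contribute was not tested.

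**Figure D5:**
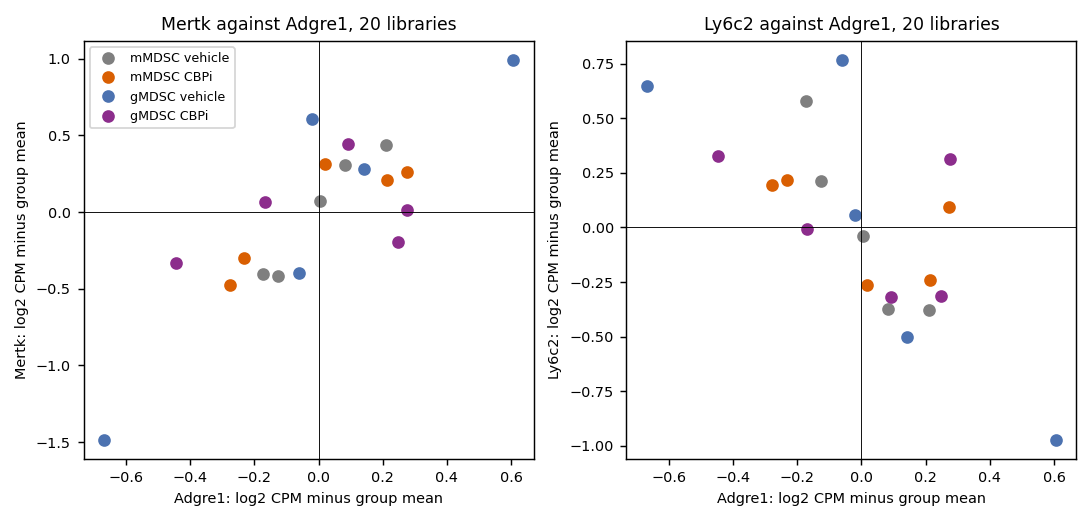
Log2 CPM minus the group mean, for Mertk (left) and Ly6c2 (right) against Adgre1 in 20 libraries, coloured by group. Mertk goes up with Adgre1 (r 0.82) and Ly6c2 goes down (r -0.72), with vehicle gMDSC 3 and 5 at the ends of the Adgre1 axis.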

How the data were processed

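RNA-seq reads of 20 libraries (4 groups of 5) were aligned with GSNAP to GRCm38, per the submitters' processing notes. For the counter and its strand setting: not given in the sources used here. The authors deposited, per library, a raw read count and an RPKM value for each of 23090 Entrez genes, with a counted width, per the file headers. Of the IDs, 21647 matched RefSeq (GRCm38.p6) symbols.

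The members and gene lists were chosen with earlier results of these data known. Counts were tested with edgeR 4.0.16 (R 4.3.3; glmQLFit, TMM, filterByExpr with a minimum count of 10 and a total of 15), per comparison on its own libraries, all 20 for the difference in response, with Benjamini-Hochberg adjustment over all genes tested. CPM are TMM-scaled over 20 libraries, and log2 CPM used a prior count of 2. Exact permutation tests (scipy 1.17.1) served the Ly6c1 share and Ly6g. Genes named beside the 9 were, per list and comparison, up to 2 of smallest p, and per member the 3 of highest correlation. The fits were also run on counts simulated from their own fitted spread with planted changes, which does not show the effect of outlying libraries. Alternatives used DESeq2 1.42.0, limma-voom 3.58.1, other scalings, no filter and libraries left out. Sequences came from RefSeq and GENCODE M21. Motif letters were chosen after the sequences were seen. Itgam is named as a gate gene and Sall1, Csf3r as defining markers. The labels share replicate numbers across cell types, not across treatments. Some genes that these rules would name are not reported here.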

Additional observations from a re-analysis of the deposited data

Results flagged for a closer look

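Across 40 sets of 5 libraries (9 genes and the Ly6c1 share in 4 groups), 4 held a library whose gap to its nearest neighbour exceeded 0.71 of the set's range, where chance flags about 1 in 20. Ly6g in CBPi gMDSC 6 was 2.14 CPM, against 0.529 to 0.916 CPM in the other 4 libraries. In the same library Cd14 was 29700 CPM, against 18410 to 20560 CPM. Ms4a7 in vehicle gMDSC 3 was 2226 CPM, against 1038 to 1336 CPM, in the library that also correlated least with its group. The Ly6c1 share in vehicle gMDSC 1 was 41.2% (Wilson 95% interval 38.4 to 44.0), against 38.8 to 39.3%, so its interval covers the others.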

How the results depend on the processing

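DESeq2's Wald test called 1709 genes for CBPi in mMDSC (1020 in edgeR), 2056 in gMDSC (1135) and 302 for the difference in response (92), and a single model of 20 libraries called 639 and 2182 for CBPi in mMDSC and gMDSC. Leaving out a library gave 694 to 1143 calls in mMDSC, 587 (without CBPi gMDSC 7) to 1394 in gMDSC, with 708 without CBPi gMDSC 6, and 34 (without CBPi gMDSC 7) to 111 for the difference. With 1 added to Ly6g CPM in place of 0.1, its CBPi differences were -0.18 in mMDSC and -1.47 in gMDSC, both with an exact permutation adjusted p of 0.0476. With 0.1 added, where the values were -1.0 and -2.03, leaving out a library gave -1.29 to -0.70 and -2.74 to -1.71, past the threshold without vehicle mMDSC 2 (-1.29, exact adjusted p = 0.0212) and without vehicle gMDSC 5 (-2.74, exact adjusted p = 0.0212). The Ly6c1 share difference ranged from -0.50 to 2.12 percentage points for CBPi in gMDSC and from -0.44 to 2.18 between cell types with CBPi, turning sign without CBPi gMDSC 10. It ranged from -0.67 to -0.14 for CBPi in mMDSC and from -0.77 to -0.08 between cell types with vehicle.

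Several signs turned. Between cell types with vehicle, Ms4a7 was 0 with no filter on low counts, -0.01 with limma-voom, -0.25 without vehicle gMDSC 3 and 5 (an alternative chosen after seeing the data), -0.38 with library totals alone and -0.21 to 0.10 with a library left out (-0.08 without vehicle mMDSC 1, -0.05 without vehicle mMDSC 5). Library totals alone gave -0.01 for Adgre1 and -0.03 for Ptprc there, and -0.20 for Ms4a7 with CBPi. The difference in response of Ly6c1 was 0.07 with limma-voom and -0.34 to 0.10 with a library left out (0.04 without vehicle mMDSC 1 or 5, 0.01 without CBPi mMDSC 6, 0.10 without vehicle gMDSC 1), and that of Ly6g was -0.08 to 1.02 (-0.08 without vehicle mMDSC 3, -0.01 without CBPi gMDSC 6). Ptprc with CBPi in gMDSC was -0.16 to 0.03 (0.03 without vehicle gMDSC 1, 0.02 without CBPi gMDSC 9). limma-voom ended the Ly6c1 call in gMDSC (-1.14, adjusted p = 0.0539). The cause of these shifts was not tested.

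Same-numbered libraries of the cell types correlated at -0.03 to 0.17 and were treated as sharing only a number, since the labels do not tell whether they share a mouse; with the replicate block the difference in response had 52 calls, the cell types 2014 (vehicle) and 4581 (CBPi), Ms4a7 with vehicle was -0.01 and Mertk with vehicle passed (-1.30, adjusted p = 0.0243), and 3 of 5 vehicle and 1 of 5 CBPi libraries correlated best with their own number. For CBPi against vehicle no numbers were shared. Depth limits Ly6g, with at most 92 counts in a library.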
